A study of Homo sapiens with 8 samples.

Results

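The 38 genes described here encode the enzymes, transporters and carriers that make, modify and move the ceramides and other lipids of the cornified barrier. They were chosen by symbol, with earlier results of these data known, out of the 58735 genes listed with read counts. Their counts and medians beside those of all tested genes are therefore descriptions and no test of the list. They fall into 5 steps: 5 fatty acid elongases, 12 genes of ceramide synthesis, 7 genes of ceramide turnover and head group exchange, 8 genes of acylceramide assembly and lipoxygenation, and 6 lipases, carriers and sterol sulphating enzymes. RNA was sequenced from EPC2-hTERT, a human esophageal epithelial line immortalised with telomerase. The 4 miR-155OE libraries came from a stable line that overexpresses the microRNA miR-155-5p from a lentivirus, and the 4 CTRL libraries came from control cells of the same line. What vector the CTRL cells carried, and whether the overexpressing line is 1 clone or a pool, is not given in the sources used here. Both kinds of cells spent 2 days on a porous membrane (0.4 µm) and 5 more with calcium raised to 1.8 mM before their upper face was exposed to air, a culture at the air-liquid interface named 3D-ALI. The labels do not say that the 4 libraries of a group came from separate cultures, so p-values measure the spread between these libraries, which may be technical.

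In the outer layers of a stratified epithelium, sphingosine-like bases are joined to fatty acids to give ceramides, which are stored as glucosylceramide and sphingomyelin and released again when the cells cornify. Very long fatty acids with a hydroxyl at the far end carry linoleate in acylceramides, and lipoxygenases oxidise that linoleate so that the lipid can be attached to the protein envelope. Loss of several of these enzymes is known to cause ichthyosis of the skin, whereas the lining of the esophagus is normally not cornified.

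The miR-155OE libraries held 33443635 to 40589679 counted reads each, and the CTRL libraries 34131130 to 52746852. MIR155HG, the host gene of the microRNA, had 0 reads in all 8 libraries, where 3 reads would be at most 0.0901 CPM (a gene's reads per 1000000 reads of its library), so the overexpression itself was not measured in these files. All 7 markers of stratified squamous keratinocytes were tested, 0 rose or fell (2 were lower with the replicate block, KRT4 and KRT13), and their summed level was 43653 to 57162 CPM in miR-155OE and 51590 to 62800 CPM in CTRL. Of the defining markers of other cell types, COL1A2 of fibroblasts, CDX2 of glandular epithelium, TYR of melanocytes and ADIPOQ and MOGAT1 of lipid cells were at 0 reads in all libraries. PMEL of melanocytes averaged 1.73 CPM in miR-155OE and 1.85 CPM in CTRL, and VWF of endothelium 1.66 CPM in miR-155OE and 1.97 CPM in CTRL. Neither passed in either fit, and the rest of the melanocyte and endothelial lists was under 1 CPM on average. Of the 3 fibroblast markers, COL1A1 was the one over 1 CPM on average, with a summed list of 98.2 to 221 CPM in miR-155OE and 92.8 to 145 CPM in CTRL. Of the 4 immune markers, 3 were under 1 CPM on average, and CD14, the one above, averaged 12.0 ± 2.98 CPM in miR-155OE and 8.71 ± 0.970 CPM in CTRL (SD, n = 4 each). COL1A1 and CD14 did not pass on group alone (edgeR adjusted p = 0.322 and 0.171), but both were higher in miR-155OE in 4 of 4 pairs and passed with the replicate block (0.0451 and 0.0239). Their part in the members' differences was not tested.

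Levels are given as CPM, with library sizes scaled by the trimmed mean of M values (TMM) in edgeR. A gene is said to rise or fall where edgeR's quasi-likelihood test on group alone gave a Benjamini-Hochberg adjusted p under 0.05 over the 15135 genes that passed the filter on low counts. Of the 38 members, 37 passed that filter and 36 did so in the CTRL libraries alone. DEGS2 reached the filter in 4 of 4 miR-155OE libraries and in 3 of 4 CTRL libraries, so it was tested by virtue of the miR-155OE libraries. ELOVL3, an elongase of saturated and monounsaturated very long chains, was not tested, with 7, 4, 10 and 2 reads in miR-155OE replicates 1 to 4 and 4, 2, 1 and 2 reads in CTRL replicates 1 to 4.

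DEGS2, FA2H and SMPD3 were the 3 of 37 members that rose in miR-155OE cells, beside 2.17% of all tested genes that rose. Among the 36 members that passed the filter in the CTRL libraries alone, which leaves out DEGS2, only FA2H and SMPD3 rose. The counts over all tested members given below keep DEGS2 in. No member fell, beside 1.05% of all tested genes, and 18 of 37 members had an unadjusted edgeR p under 0.05, beside 2925 of the 15135 genes. The log2 fold change of miR-155OE over CTRL was above 0 for 33 members and below 0 for 4 (CERS2, CERS5, CERS6 and SGMS2), beside 7367 and 7768 of all tested genes. Over the members it ranged between -0.10 and 2.48 with a median of 0.28, against a median of -0.01 over all tested genes. Groups did not overlap, with all miR-155OE libraries above all CTRL libraries, for 7 members: DEGS1, DEGS2, FA2H, SGMS1, SMPD3, ALOXE3 and SDR9C7. That pattern held for 6.16% of all tested genes, and the opposite one held for no member and for 5.25% of all tested genes.

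Same-numbered libraries of both groups deviated together for numbers 1, 2 and 4 (correlations of 0.578, 0.495 and 0.606). For number 3 the correlation was weak (0.182), and both of its libraries matched another library better. The counts were also fitted with the replicate number as a block, which takes all 4 numbers as pairs. With the block, 22 of 37 members were higher in miR-155OE at an adjusted p under 0.05, beside 7.43% of all tested genes, and 0 were lower, beside 5.17%. In 23 members the miR-155OE library was the higher of both libraries in 4 of 4 pairs, beside 18.8% of all tested genes. Only CERS2 and CERS6 were lower in 4 of 4 pairs, beside 16.9% of all tested genes, and neither passed either test. The median over the members of the log2 difference of a pair, miR-155OE minus CTRL, was 0.22 in pair 1, 0.24 in pair 2, 0.45 in pair 3 and 0.32 in pair 4, while the median over all tested genes was within 0.01 of 0 in each. The count of 3 on group alone was 2 without miR-155OE replicate 1 or 3 or CTRL replicate 2 or 3, where 98 to 159 of all tested genes rose, against 329 with all libraries. It was 15 without miR-155OE replicate 2 (750 of all tested genes rose) and 5 without CTRL replicate 4 (305). With DESeq2 it was 13 (776), and with no filter on low counts 13 (619). With the block, leaving out both libraries of number 1, 2, 3 or 4 gave 13, 20, 17 and 14 members. Of all tested genes, 436, 1141, 808 and 626 were higher in those fits.

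**Figure D1:**
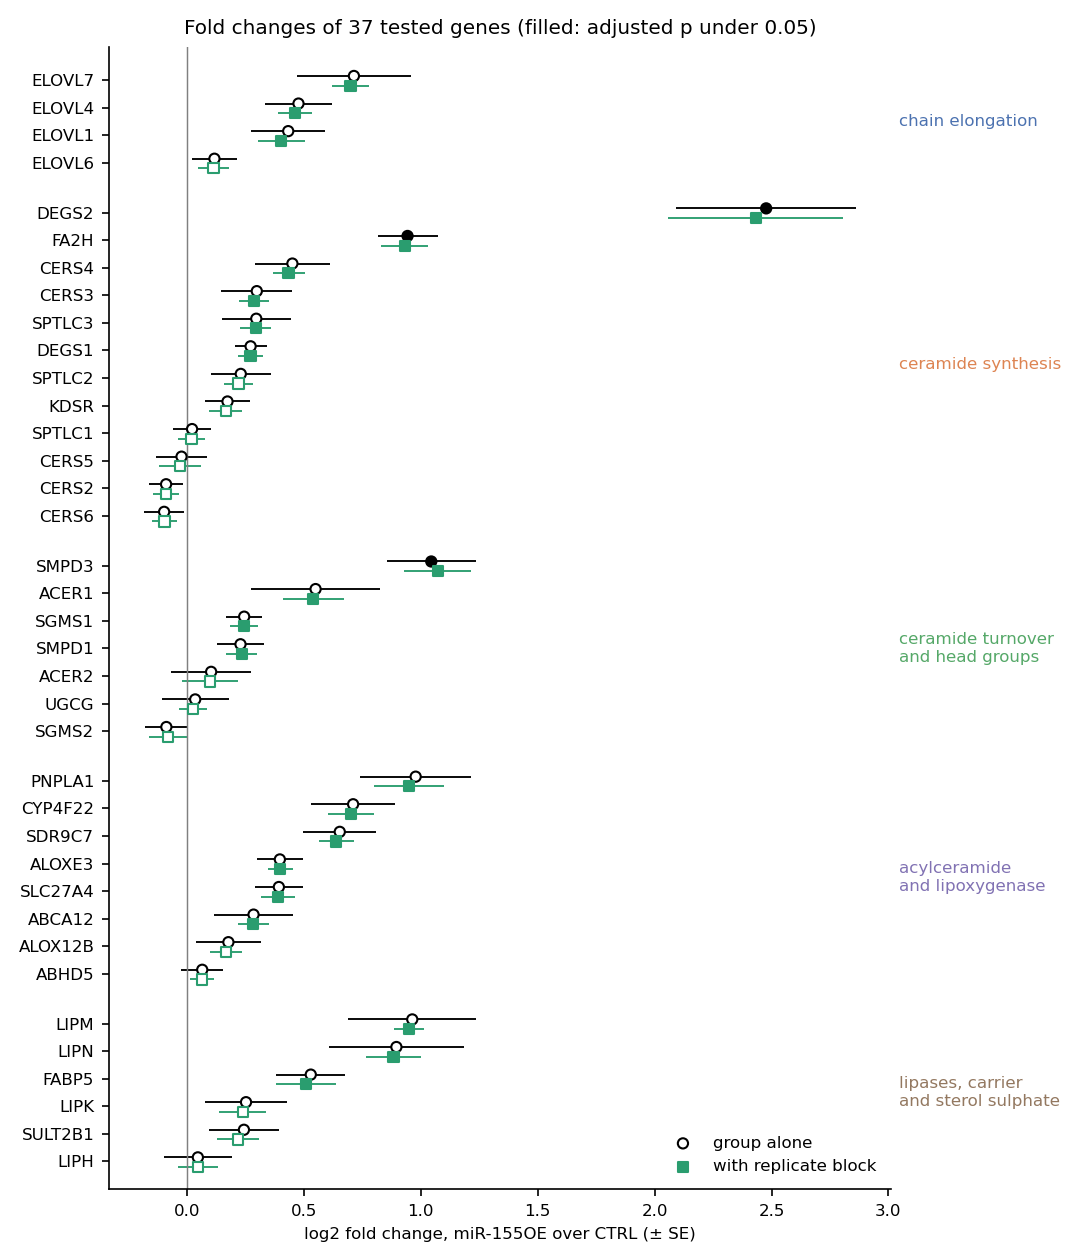
The log2 fold change of miR-155OE over CTRL is plotted for the 37 tested members by step, with bars of 1 standard error; black circles are the fit on group alone, green squares the fit with the replicate block, and a filled symbol has an adjusted p under 0.05. DEGS2, FA2H and SMPD3 are filled in both fits, and 19 more members are filled with the block alone.

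The microRNA's own sequence shows which target letters the members could carry. Mature hsa-miR-155-5p, from RefSeq on GRCh38.p14 (chr21:25573983-25574006, plus strand), is printed with its seed, bases 2 to 8, in capitals, and below it are 27 bases of the messenger RNA around each seed match in a member, with the match AGCATTA in capitals.
hsa-miR-155-5p: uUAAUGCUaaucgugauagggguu
SGMS2: agtggtttttAGCATTAggtttagcaa
ELOVL6: tgagatatgaAGCATTAtccttttgtt
CERS6: aacactgagcAGCATTAcactacaatg
The matches lie in the 3′ UTR at chr4:107910987-107911013 (plus strand) for SGMS2, at chr4:110050520-110050546 (minus strand) for ELOVL6 and at chr2:168770821-168770847 (plus strand) for CERS6, all on GRCh38 in GENCODE 29. None of the 3 is followed by an A. A match was found in the longest 3′ UTR of 3 of 37 members that have one in the annotation (8.11%), against 1473 of 12512 tested genes with one (11.8%). The median 3′ UTR was 1092 bases long in members and 1381.5 bases in tested genes. SGMS2, which makes sphingomyelin at the plasma membrane, averaged 56.5 ± 3.36 CPM in miR-155OE and 60.1 ± 7.79 CPM in CTRL (SD, n = 4 each), and had an edgeR adjusted p of 0.665. CERS6, a synthase of shorter-chain ceramides, had 100, 112, 114 and 120 CPM in miR-155OE replicates 1 to 4, against 106, 114, 132 and 125 CPM in CTRL replicates 1 to 4. It was lower in 4 of 4 pairs by 0.02 to 0.22 on the log2 scale, the groups overlapped, and its edgeR adjusted p was 0.576 on group alone and 0.282 with the replicate block. ELOVL6, whose values are given with the elongases, did not pass in either fit.

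Fatty acid elongases add 2-carbon units to acyl chains, and ELOVL1, ELOVL4 and ELOVL7 were the more abundant of the 5. None of the 4 tested elongases passed on group alone, and 3 were higher with the replicate block, beside 7.43% of all tested genes. The median log2 fold change was 0.45. ELOVL4, which makes the ultra-long chains of acylceramide, had 378, 310, 498 and 453 CPM in miR-155OE replicates 1 to 4, against 274, 261, 308 and 335 CPM in CTRL replicates 1 to 4. Only miR-155OE replicate 2 lay within the CTRL range, and replicate 3 was the highest. The log2 fold change of ELOVL4 was 0.48 ± 0.14 (SE), with an edgeR adjusted p of 0.0940 on group alone and 0.00548 with the block.

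ELOVL7 had 197, 133, 282 and 257 CPM in miR-155OE replicates 1 to 4, against 118, 91.0, 143 and 177 CPM in CTRL replicates 1 to 4. Number 2 was the lowest library of both groups, and the groups overlapped through that miR-155OE library. Its log2 fold change was 0.71 ± 0.24 on group alone (edgeR adjusted p = 0.139) and 0.70 ± 0.08 with the block (adjusted p = 0.00163), with pair differences of 0.73, 0.55, 0.98 and 0.54. ELOVL1, the elongase of saturated chains used in very long ceramides, had 234, 201, 351 and 313 CPM in miR-155OE replicates 1 to 4 and 201, 184, 201 and 229 CPM in CTRL replicates 1 to 4. MiR-155OE replicates 3 and 4 stood well above the rest, replicate 1 was just above the CTRL range and replicate 2 within it, and the edgeR adjusted p was 0.167 on group alone and 0.0303 with the block (log2 fold change 0.40 ± 0.10). ELOVL6, which extends palmitate, differed least of the tested elongases, with 30.3 ± 3.56 CPM in miR-155OE and 28 ± 2.18 CPM in CTRL (SD, n = 4 each) and an edgeR adjusted p of 0.554 on group alone and 0.307 with the block.

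Ceramide synthesis held the members with the highest and the lowest log2 fold changes, DEGS2 at 2.48 and CERS6 at -0.10. Of its 12 genes, 2 rose on group alone and 6 were higher with the block, beside 2.17% and 7.43% of all tested genes. DEGS2, tested by virtue of the miR-155OE libraries, is in both counts, and FA2H is the other gene that rose. In either fit 0 were lower, and the median log2 fold change was 0.25. DEGS2, which adds the hydroxyl that turns dihydroceramide into phytoceramide, had 2.04, 1.4, 3.55 and 1.45 CPM in miR-155OE replicates 1 to 4, against 0.207, 0.463, 0.325 and 0.516 CPM in CTRL replicates 1 to 4. Those levels rest on 68, 50, 143 and 53 reads in miR-155OE replicates 1 to 4 and on 7, 16, 17 and 20 reads in CTRL replicates 1 to 4. The lowest miR-155OE library was above the highest CTRL library, and replicate 3 was the highest of all. DEGS2 rose with a log2 fold change of 2.48 ± 0.38 and an edgeR adjusted p of 0.0111, and the pair differences were 3.30, 1.60, 3.45 and 1.49.

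FA2H, the fatty acid hydroxylase that makes 2-hydroxylated ceramides, had 17.8, 14.6, 19.6 and 22.6 CPM in miR-155OE replicates 1 to 4, against 10.5, 8.94, 9.66 and 9.67 CPM in CTRL replicates 1 to 4. The CTRL libraries lay close together and all 4 miR-155OE libraries stood above them. FA2H rose with a log2 fold change of 0.94 ± 0.13 and an edgeR adjusted p of 0.00555. Leaving out 1 library at a time kept the adjusted p of FA2H between 0.00115 and 0.0269 and that of DEGS2 between 0.00433 and 0.0493. Where strand is not used in counting, reads from overlapping genes cannot be told apart, and the strand setting is not given in the sources used here. DEGS2 overlaps EVL on the other strand, and EVL averaged 9.24 CPM in miR-155OE and 7.80 CPM in CTRL, with an edgeR adjusted p of 0.336.

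Both genes that rose in this step start in stretches rich in G and C. Their promoters are shown from 250 bases before to 50 bases after the RefSeq start on GRCh38.p14, in the direction of transcription, with each GC box (GGGCGG on either strand) in capitals, because DEGS2 and FA2H are the 2 members of ceramide synthesis that passed the test.
DEGS2: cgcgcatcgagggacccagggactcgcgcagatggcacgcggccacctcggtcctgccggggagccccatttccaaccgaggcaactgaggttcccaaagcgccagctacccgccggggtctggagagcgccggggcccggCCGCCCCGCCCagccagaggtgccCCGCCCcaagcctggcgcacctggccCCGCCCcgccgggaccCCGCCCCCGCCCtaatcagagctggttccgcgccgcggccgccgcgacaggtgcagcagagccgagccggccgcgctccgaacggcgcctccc
FA2H: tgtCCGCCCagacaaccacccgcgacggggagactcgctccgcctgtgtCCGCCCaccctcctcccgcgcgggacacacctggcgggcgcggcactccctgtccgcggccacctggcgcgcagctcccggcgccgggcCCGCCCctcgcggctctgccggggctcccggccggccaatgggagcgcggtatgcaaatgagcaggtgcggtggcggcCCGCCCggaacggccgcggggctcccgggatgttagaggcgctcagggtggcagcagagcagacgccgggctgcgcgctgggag
The DEGS2 window is chr14:100159596-100159895 on the minus strand, has 77.0% G and C and holds 6 matches, some of which adjoin or share a base. The FA2H window is chr16:74774771-74775070 on the minus strand, also has 77.0% G and C and holds 4. Such windows were not particular to the genes that rose. In SPTLC1, SPTLC2, CERS5, CERS6 and KDSR, members of this step that passed in neither fit, G and C made up 57.7% (SPTLC1) to 78.3% (KDSR). Each of their windows held 2 (SPTLC1 and SPTLC2) to 5 (CERS5) GC boxes. A GC box was present in 29 of the 46 promoters that RefSeq gives for 33 of the 38 members (63%), against 45% of 35116 promoters in all. The letters TGANTCA, to which AP-1 is known to bind, were present in 4 of the 46 (8.7%), against 7.71% of all, and were found in ALOXE3 and SGMS2 alone among members. The letters GCCNNNGGC, known from TFAP2 factors, were present in 18 of the 46 (39.1%), against 23.2% of all. DEGS2 and FA2H held neither AP-1 nor TFAP2 letters in these windows. These shares were not adjusted for base composition, and the match of a few letters is a description of the window alone.

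DEGS1, the desaturase that makes the double bond of ordinary ceramide, had 45.7, 48.6, 46.7 and 51.8 CPM in miR-155OE replicates 1 to 4, against 36.7, 40.1, 41.2 and 41.6 CPM in CTRL replicates 1 to 4. The groups did not overlap, but the difference was small: the log2 fold change was 0.27 ± 0.07 with an edgeR adjusted p of 0.0574 on group alone and 0.0144 with the block. CERS4, a synthase of long-chain ceramides, had 49.1, 47.2, 68.8 and 75.3 CPM in miR-155OE replicates 1 to 4, against 41.3, 37.3, 45.4 and 52.0 CPM in CTRL replicates 1 to 4. Replicates 3 and 4 of miR-155OE stood above every CTRL library, replicates 1 and 2 lay within the CTRL range, and the log2 fold change was 0.43 ± 0.07 with the block (edgeR adjusted p = 0.00527, against 0.151 on group alone).

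CERS3, the synthase of the ultra-long ceramides of the skin, was the most abundant ceramide synthase. It had 268, 211, 322 and 340 CPM in miR-155OE replicates 1 to 4, against 212, 195, 268 and 253 CPM in CTRL replicates 1 to 4. Its groups overlapped, and its log2 fold change of 0.29 ± 0.06 with the block passed (edgeR adjusted p = 0.0196) where 0.30 ± 0.15 on group alone did not (adjusted p = 0.320). CERS2, the broadly expressed synthase of very long ceramides, had 59.5, 70.5, 65.0 and 60.8 CPM in miR-155OE replicates 1 to 4, against 70.3, 71.8, 68.0 and 62.3 CPM in CTRL replicates 1 to 4. It was lower in 4 of 4 pairs without passing (edgeR adjusted p = 0.559 on group alone and 0.334 with the block). SETDB1, which CERS2 overlaps on the other strand, averaged 12.7 CPM in miR-155OE and 12.0 CPM in CTRL (edgeR adjusted p = 0.616). CERS5, a synthase of palmitoyl ceramides, averaged 9.14 ± 1.1 CPM in miR-155OE and 9.29 ± 0.687 CPM in CTRL (SD, n = 4 each).

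The first enzyme of the pathway, serine palmitoyltransferase, is a complex of SPTLC1 with either SPTLC2 or SPTLC3. SPTLC3, the subunit that makes bases of other chain lengths, had 59.6, 56.7, 81.8 and 78.9 CPM in miR-155OE replicates 1 to 4, against 50.6, 48.1, 57.1 and 69.8 CPM in CTRL replicates 1 to 4. It was higher in 4 of 4 pairs, the groups overlapped, and it passed with the block (log2 fold change 0.29 ± 0.07, edgeR adjusted p = 0.0206) and not on group alone (adjusted p = 0.307). SPTLC2 had 107, 93.3, 143 and 124 CPM in miR-155OE replicates 1 to 4, against 92.4, 87.2, 107 and 112 CPM in CTRL replicates 1 to 4, and missed the threshold narrowly with the block (edgeR adjusted p = 0.050033). SPTLC1, the shared subunit, had 111, 117, 117 and 137 CPM in miR-155OE replicates 1 to 4, against 111, 114, 127 and 123 CPM in CTRL replicates 1 to 4, and its log2 fold change was 0.02 ± 0.08 (edgeR adjusted p = 0.919). KDSR, the reductase of the next step, averaged 55.8 ± 7.63 CPM in miR-155OE and 49.5 ± 3.07 CPM in CTRL (SD, n = 4 each), with an edgeR adjusted p of 0.37 on group alone and 0.163 with the block.

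**Figure D2:**
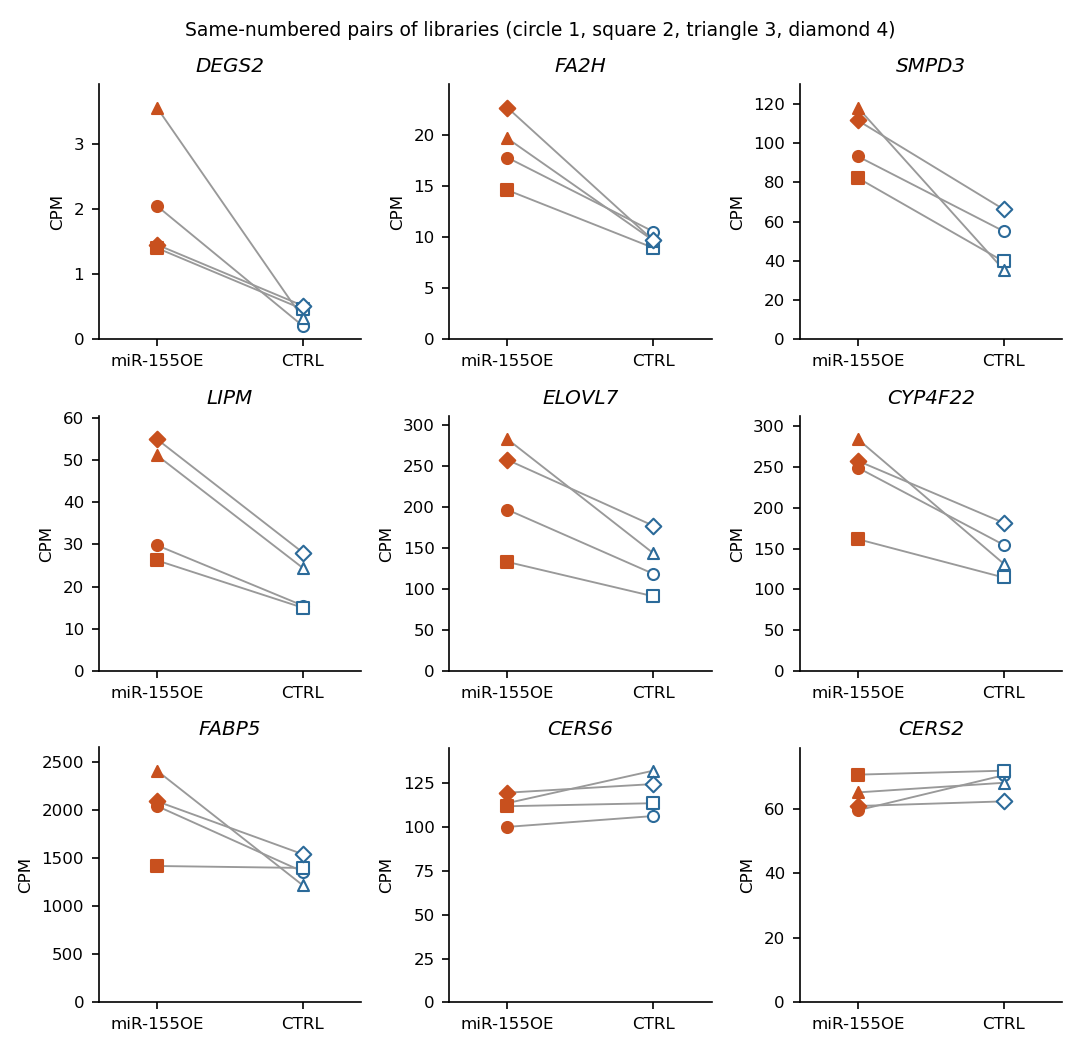
CPM is plotted for DEGS2, FA2H, SMPD3, LIPM, ELOVL7, CYP4F22, FABP5, CERS6 and CERS2 in the 8 libraries, miR-155OE on the left and CTRL on the right, with a line joining libraries of the same replicate number. The lines of LIPM all run down from miR-155OE to CTRL (pair differences of 0.94, 0.81, 1.07 and 0.97), FABP5 is level in pair 2 (0.02), and CERS2 and CERS6 are lower in miR-155OE in every pair.

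Among the 7 genes of ceramide turnover and head groups, SMPD3 rose on group alone and 4 were higher with the block, beside 2.17% and 7.43% of all tested genes. In either fit 0 were lower, and the median log2 fold change was 0.23. SMPD3, the neutral sphingomyelinase that releases ceramide from sphingomyelin, had 93.3, 82.3, 118 and 112 CPM in miR-155OE replicates 1 to 4, against 55.1, 39.7, 35.5 and 66.3 CPM in CTRL replicates 1 to 4. The lowest miR-155OE library was above the highest CTRL library, and the largest pair difference, 1.74, was that of number 3. Its log2 fold change was 1.04 ± 0.19 with an edgeR adjusted p of 0.0211. The call on group alone was lost without miR-155OE replicate 1 (adjusted p = 0.0538) or 3 (0.0622) and without CTRL replicate 2 (0.0575) or 3 (0.0566) in edgeR. SMPD3 overlaps PRMT7 on the other strand, and PRMT7 averaged 5.997 CPM in miR-155OE and 6.43 CPM in CTRL (edgeR adjusted p = 0.718).

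SMPD1, the acid sphingomyelinase, had 37.7, 37, 33.6 and 40.3 CPM in miR-155OE replicates 1 to 4, against 36.6, 30.3, 26.6 and 33.5 CPM in CTRL replicates 1 to 4. Its log2 fold change with the block was 0.23 ± 0.07, just past the threshold with an edgeR adjusted p of 0.0490, against 0.249 on group alone. SGMS1, which makes sphingomyelin in the Golgi, had 30.2, 29.7, 32.7 and 35.5 CPM in miR-155OE replicates 1 to 4, against 26.0, 26.3, 27.0 and 28.9 CPM in CTRL replicates 1 to 4. Its groups did not overlap, and it passed with the block (log2 fold change 0.24 ± 0.06, edgeR adjusted p = 0.0285) and not on group alone (adjusted p = 0.111).

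Of both ceramidases, ACER1, the alkaline enzyme of differentiated keratinocytes, had 4.30, 6.02, 7.64 and 10.3 CPM in miR-155OE replicates 1 to 4, against 3.94, 3.99, 4.16 and 7.22 CPM in CTRL replicates 1 to 4. Replicate 4 was the highest library of both groups, and the log2 fold change was 0.54 ± 0.13 with the block (edgeR adjusted p = 0.0283, against 0.314 on group alone). ACER2, a Golgi ceramidase, averaged 5.69 ± 1.13 CPM in miR-155OE and 5.30 ± 0.833 CPM in CTRL (SD, n = 4 each), with an edgeR adjusted p of 0.795. UGCG, which puts glucose on ceramide and was the most abundant gene of this step, had 95.8, 101, 131 and 144 CPM in miR-155OE replicates 1 to 4, against 106, 98.5, 119 and 137 CPM in CTRL replicates 1 to 4. Replicates 3 and 4 were higher than 1 and 2 in both groups, and the log2 fold change was 0.03 ± 0.14 (edgeR adjusted p = 0.928).

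All 8 genes of acylceramide assembly and lipoxygenation had a positive log2 fold change, beside 7367 of the 15135 tested genes. None passed on group alone, and 6 were higher with the block, beside 7.43% of all tested genes. The median log2 fold change was 0.39. CYP4F22, the hydroxylase that adds the hydroxyl at the far end of ultra-long fatty acids, had 249, 162, 284 and 258 CPM in miR-155OE replicates 1 to 4, against 154.7, 115, 132 and 182 CPM in CTRL replicates 1 to 4. MiR-155OE replicate 2 lay within the CTRL range and the other 3 above it, and the log2 fold change was 0.71 ± 0.18 (edgeR adjusted p = 0.0587 on group alone and 0.00325 with the block). PNPLA1, the transacylase that puts linoleate on that hydroxyl, had 19.5, 11.3, 26.2 and 22.2 CPM in miR-155OE replicates 1 to 4, against 8.52, 8.51, 9.68 and 13.4 CPM in CTRL replicates 1 to 4. Again replicate 2 was the one miR-155OE library within the CTRL range, and the log2 fold change was 0.98 ± 0.24 (edgeR adjusted p = 0.0527 on group alone and 0.00532 with the block). ABHD5, the cofactor of PNPLA1, averaged 115 ± 11.2 CPM in miR-155OE and 110 ± 9.90 CPM in CTRL (SD, n = 4 each), with an edgeR adjusted p of 0.752. ABHD5 overlaps ANO10 on the other strand, which averaged 60.0 CPM in miR-155OE and 57.1 CPM in CTRL (edgeR adjusted p = 0.578).

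SLC27A4, a fatty acid transport protein with acyl-CoA synthetase activity, had 170, 143, 198 and 179 CPM in miR-155OE replicates 1 to 4, against 125, 123, 128 and 149 CPM in CTRL replicates 1 to 4. Its log2 fold change was 0.39 ± 0.10, with an edgeR adjusted p of 0.0640 on group alone and 0.0101 with the block. ABCA12, the transporter that loads lipid into lamellar granules, had 543, 385, 638 and 531 CPM in miR-155OE replicates 1 to 4, against 477, 312, 460 and 472 CPM in CTRL replicates 1 to 4. Number 2 was the lowest library of both groups, the groups overlapped, and the log2 fold change was 0.28 ± 0.17 on group alone (edgeR adjusted p = 0.398) and 0.28 ± 0.07 with the block (adjusted p = 0.0249).

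ALOX12B and ALOXE3, which act one after the other on the linoleate of acylceramide, lie 8183 bases apart on chromosome 17 (GRCh38, minus strand). ALOX12B, the 12R-lipoxygenase that acts first, had 160, 144, 194 and 222 CPM in miR-155OE replicates 1 to 4, against 165, 132, 162 and 178 CPM in CTRL replicates 1 to 4. Its groups overlapped, pair 1 was lower in miR-155OE, and the log2 fold change was 0.18 ± 0.14 (edgeR adjusted p = 0.535 on group alone and 0.147 with the block). ALOXE3, the epoxyalcohol synthase that acts next, had 89.9, 79.9, 98.8 and 101 CPM in miR-155OE replicates 1 to 4, against 74.7, 58.7, 72.6 and 75 CPM in CTRL replicates 1 to 4. Its groups did not overlap, and the log2 fold change was 0.40 ± 0.10 (edgeR adjusted p = 0.0571 on group alone and 0.00291 with the block). SDR9C7, the dehydrogenase that oxidises the lipoxygenase product, had 138, 101, 173 and 155.2 CPM in miR-155OE replicates 1 to 4, against 97.5, 72.2, 91.0 and 100 CPM in CTRL replicates 1 to 4. Its lowest miR-155OE library was only just above its highest CTRL library, and the log2 fold change was 0.65 ± 0.16 (edgeR adjusted p = 0.0505 on group alone and 0.00199 with the block). The difference between ALOX12B and ALOXE3 in their response was not tested.

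**Figure D3:**
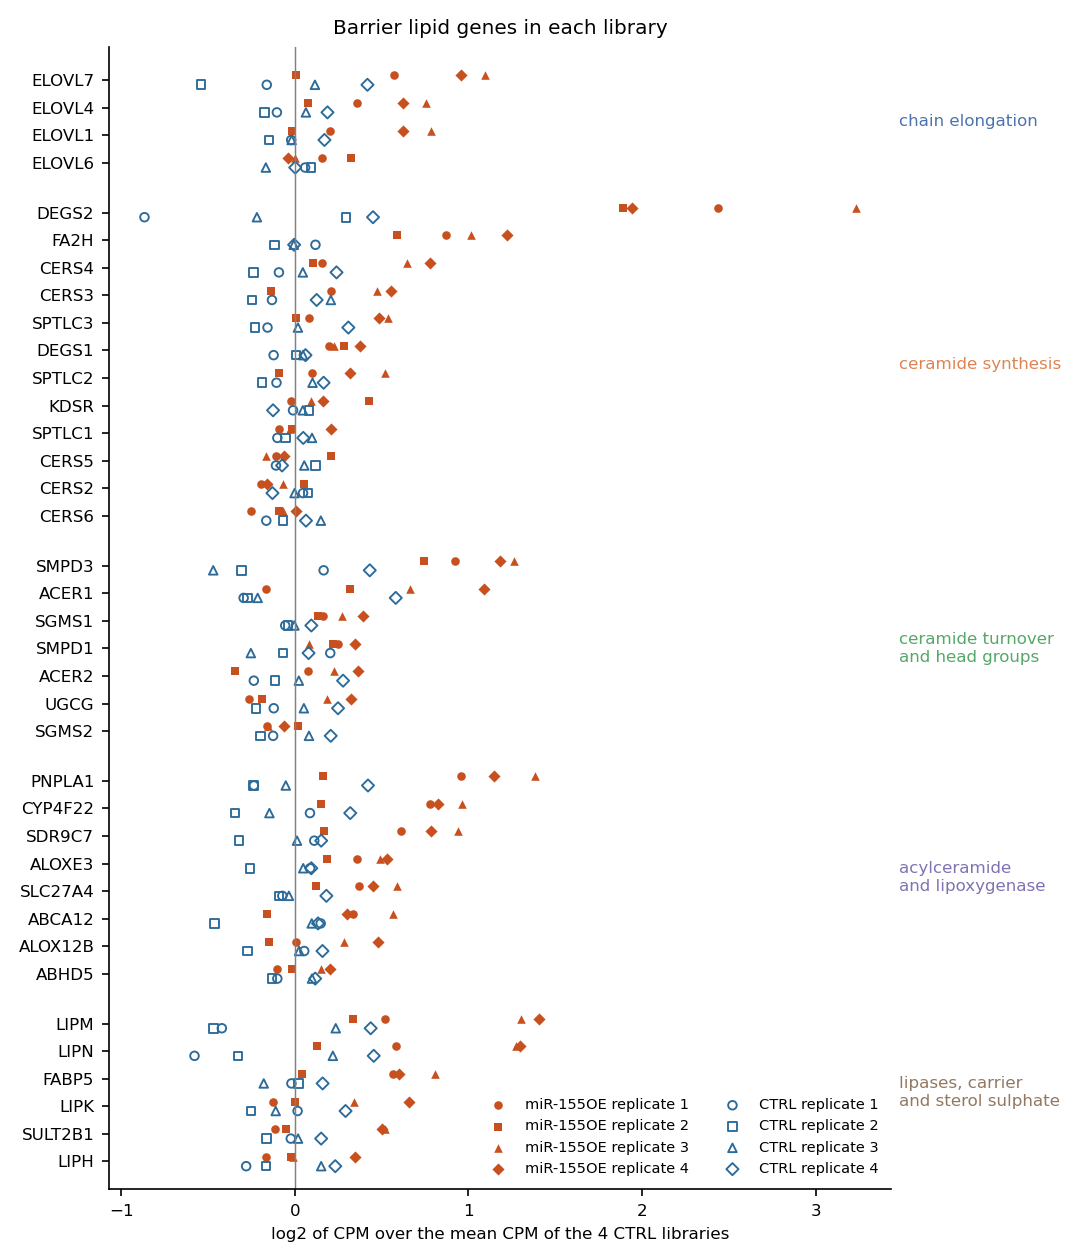
The log2 CPM of each library over the CTRL mean is plotted for the 37 tested members by step; filled orange symbols are miR-155OE, open blue symbols are CTRL, and the shape gives the replicate number. DEGS1, DEGS2, FA2H, SGMS1, SMPD3, ALOXE3 and SDR9C7 have all orange symbols to the right of the blue ones. The library medians over the members are 0.16, 0.07, 0.52 and 0.48 in miR-155OE replicates 1 to 4 and -0.10, -0.18, 0.02 and 0.17 in CTRL replicates 1 to 4.

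The last 6 genes, lipases, the carrier FABP5 and the sulphotransferase SULT2B1, held 0 that passed on group alone. With the block 3 were higher, beside 7.43% of all tested genes, and the median log2 fold change was 0.39. LIPK, LIPN and LIPM are acid lipases of differentiated keratinocytes that lie in that order on chromosome 10, with 8619 bases between LIPK and LIPN and 24487 bases between LIPN and LIPM. LIPM had 29.8, 26.2, 51.2 and 55 CPM in miR-155OE replicates 1 to 4, against 15.5, 15, 24.4 and 28.1 CPM in CTRL replicates 1 to 4. Replicates 3 and 4 were higher than replicates 1 and 2 in both groups, so the groups overlapped although each miR-155OE library was well above its CTRL pair. Its log2 fold change of 0.96 ± 0.27 on group alone did not pass (edgeR adjusted p = 0.0818), whereas 0.95 ± 0.07 with the block had the lowest adjusted p of any member, 0.000187.

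LIPN, loss of which is known to cause a late-onset ichthyosis, had 11.6, 8.48, 18.8 and 19.1 CPM in miR-155OE replicates 1 to 4, against 5.21, 6.19, 9.05 and 10.7 CPM in CTRL replicates 1 to 4. Replicate 2 was the one miR-155OE library within the CTRL range, and the log2 fold change was 0.88 ± 0.12 with the block (edgeR adjusted p = 0.00279, against 0.118 on group alone). LIPK, the nearest neighbour of LIPN, had 13.8, 15, 19.1 and 23.8 CPM in miR-155OE replicates 1 to 4, against 15.2, 12.6, 13.9 and 18.4 CPM in CTRL replicates 1 to 4, with a log2 fold change of 0.25 ± 0.17 (edgeR adjusted p = 0.480 on group alone and 0.159 with the block). The promoters of LIPM and LIPN, the neighbours that passed with the block, are shown over the same window as those of DEGS2 and FA2H and hold no match to the letters searched, so no base is in capitals.
LIPM: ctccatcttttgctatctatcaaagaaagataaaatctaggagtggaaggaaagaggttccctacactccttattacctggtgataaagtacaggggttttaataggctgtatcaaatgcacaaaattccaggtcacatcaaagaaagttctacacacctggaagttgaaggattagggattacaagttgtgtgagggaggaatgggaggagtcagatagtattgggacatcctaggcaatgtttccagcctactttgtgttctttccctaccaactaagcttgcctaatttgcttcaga
LIPN: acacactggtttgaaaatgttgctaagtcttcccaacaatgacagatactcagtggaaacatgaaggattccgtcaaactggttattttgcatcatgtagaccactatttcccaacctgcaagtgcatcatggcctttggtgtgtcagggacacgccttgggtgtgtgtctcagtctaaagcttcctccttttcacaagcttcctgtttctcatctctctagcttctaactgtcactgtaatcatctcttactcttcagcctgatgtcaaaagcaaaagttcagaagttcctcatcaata
The LIPM window is chr10:88802480-88802779 and the LIPN window chr10:88759770-88760069, both on the plus strand of GRCh38.p14. They have 41.0% and 42.7% G and C. In the annotation used for counting, LIPN starts at 88761406, so its printed window lies wholly upstream of the counted gene.

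LIPH, a phosphatidic acid-selective lipase, averaged 12.2 ± 1.93 CPM in miR-155OE and 11.8 ± 2.00 CPM in CTRL (SD, n = 4 each), with an edgeR adjusted p of 0.903. SULT2B1, which makes cholesterol sulphate, had 170, 178, 264 and 261 CPM in miR-155OE replicates 1 to 4, against 181, 165, 187 and 205 CPM in CTRL replicates 1 to 4. Replicates 3 and 4 of miR-155OE were above all CTRL libraries and replicates 1 and 2 were not, and the edgeR adjusted p was 0.419 on group alone and 0.147 with the block.

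FABP5, the epidermal fatty acid binding protein, was the most abundant member, with 2039, 1416, 2406 and 2088 CPM in miR-155OE replicates 1 to 4, against 1358, 1396, 1216 and 1538 CPM in CTRL replicates 1 to 4. MiR-155OE replicate 2 lay within the CTRL range and the other 3 above it. Its log2 fold change was 0.53 ± 0.15 on group alone (edgeR adjusted p = 0.0771) and 0.51 ± 0.13 with the block (adjusted p = 0.0339). FABP5 shares near-identical sequence with processed pseudogenes, so how reads were split between FABP5 and FABP5P7 on chromosome 11 is uncertain. FABP5P7 had 222, 184, 323 and 217 CPM in miR-155OE replicates 1 to 4, against 142, 153, 144 and 168 CPM in CTRL replicates 1 to 4. Its groups did not overlap, and FABP5P7 rose with a log2 fold change of 0.64 ± 0.15. Its edgeR adjusted p was 0.0477 on group alone (up to 0.127 with 1 library left out) and 0.0155 with the block. The sum of FABP5 and FABP5P7 was 2261, 1601, 2728 and 2304 CPM in miR-155OE replicates 1 to 4, against 1500, 1549, 1360 and 1707 CPM in CTRL replicates 1 to 4. In that sum too, replicate 2 alone of miR-155OE lay within the CTRL range. An antisense RNA that overlaps FABP5, AC009902.2, averaged 22.1 CPM in miR-155OE and 18.8 CPM in CTRL. FABP5 lies on the long arm of chromosome 8, where the 230 other genes with a mean of at least 4 CPM lay at 0.27 in the median of their log2 fold changes (quartiles 0.16 and 0.40), against -0.36 over 123 genes of the short arm and -0.00 over 9937 genes of other chromosomes. The part of the arm-wide difference in the FABP5 result was not tested.

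Per kilobase of gene length as the authors list it, the members spanned a wide range of levels. FABP5 was the highest at 957 ± 199 CPM per kb in miR-155OE and 663 ± 63.8 in CTRL (SD, n = 4 each). ELOVL4 came next, at 135 ± 27.3 CPM per kb in miR-155OE and 96.8 ± 11.1 in CTRL, followed in CTRL by ELOVL1, at 110 ± 27.5 CPM per kb in miR-155OE and 81.3 ± 7.51 in CTRL, and the ranges of 1 SD around these neighbours overlapped in both groups. SULT2B1, ALOX12B, CYP4F22 and SDR9C7 followed at 65.3 ± 5.85, 58.0 ± 7.08, 55.1 ± 11.0 and 51.1 ± 7.14 CPM per kb in CTRL, and the ranges of 1 SD around neighbours in this order overlapped. In miR-155OE the same genes had 77.3 ± 18.1, 65.5 ± 12.8, 90.1 ± 20.1 and 80.4 ± 17.3 CPM per kb. The lowest tested members were CERS5, at 1.35 ± 0.163 CPM per kb in miR-155OE and 1.38 ± 0.102 in CTRL, and DEGS2, at 0.473 ± 0.224 CPM per kb in miR-155OE and 0.0846 ± 0.0312 in CTRL. The gene with the highest fold change was therefore the tested member with the lowest level.

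**Figure D4:**
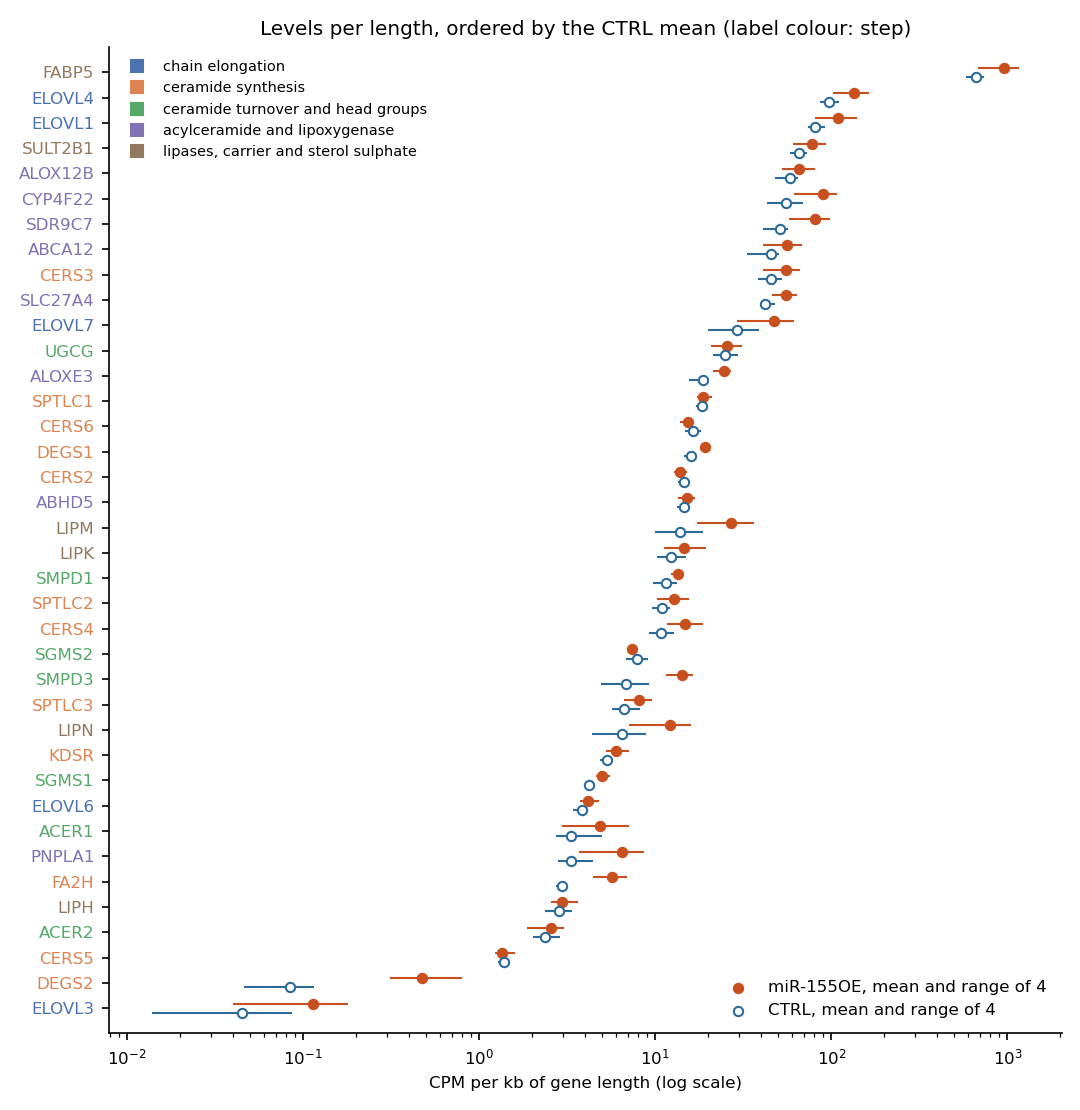
The level of each of the 38 members in CPM per kb of gene length is plotted on a log axis, as the mean with the range of 4 libraries, miR-155OE in filled and CTRL in open symbols, in the order of the CTRL mean. FABP5 lies highest, at 957 CPM per kb in miR-155OE and 663 in CTRL, DEGS2 and ELOVL3 lie lowest, and the separation of DEGS2 is the widest.

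The members did not have the same spread in all libraries. The coefficient of variation over 4 libraries had a median over the 37 tested members of 19.5% in miR-155OE and 13.0% in CTRL, and its highest value was that of DEGS2 in both, 47.5% in miR-155OE and 36.9% in CTRL. MiR-155OE replicates 3 and 4 had the higher member levels, with library medians of 0.52 and 0.48 over the CTRL mean on the log2 scale, against 0.16 and 0.07 in replicates 1 and 2. In CTRL, replicates 3 and 4 also had the higher medians, at 0.02 and 0.17, against -0.10 and -0.18 in replicates 1 and 2. Over all tested genes the same medians lay between -0.01 and 0.00.

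Markers of differentiation differed between the groups alongside the members. Of 7 markers of epidermal-type upper layers, KRT1, DSC1 and CASP14 rose, 4 were higher with the block, and the summed level was 6221 to 22135 CPM in miR-155OE and 3221 to 8800 CPM in CTRL. KRT1, a keratin of cornifying epithelium, had 6632, 2678, 9626 and 6408 CPM in miR-155OE replicates 1 to 4, against 693, 986, 624 and 1504 CPM in CTRL replicates 1 to 4. The DSC1 call was lost without CTRL replicate 1 or 3 (edgeR adjusted p = 0.0504 and 0.0629), and the CASP14 call was lost without any one library but miR-155OE replicate 2 (0.0631 to 0.124). The others of that list were not all higher: FLG averaged 239 CPM in miR-155OE and 260 CPM in CTRL (edgeR adjusted p = 0.731), and LOR averaged 34.6 CPM in miR-155OE and 36.9 CPM in CTRL (edgeR adjusted p = 0.808). Of 5 markers of mucosal-type upper layers, among them KRT4 and KRT13 again, KRT78 fell and all 5 were lower with the block, and the summed level was 278 to 1400 CPM in miR-155OE and 1494 to 2127 CPM in CTRL. The KRT78 call too was lost without any one library but miR-155OE replicate 2 (edgeR adjusted p of 0.0618 to 0.127). In bulk RNA, fewer cells of a kind and less RNA per cell cannot be told apart, and the part of these markers in the members' differences was not tested.

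The other genes of sphingolipid and barrier lipid metabolism, also listed with earlier results known, were less one-sided. Of 77 listed, 66 were tested, 5 rose and 0 fell, beside 2.17% and 1.05% of all tested genes. With the block 14 of the 66 were higher, beside 7.43% of all tested genes, and 5 of the 66 were lower, beside 5.17%. Their median log2 fold change was -0.00, against 0.28 over the members, but it differed by role, between -0.18 and 0.26. The lowest was that of ceramide synthases and transfer, with only 1 gene tested. The highest was that of the 12 genes of lipases, lamellar body and sterol, of which 7 were higher and 0 lower with the block. That median lies within the range of the members' steps. The 6 with the lowest p were EPHX3, STS, PLA2G2F, CYP4F3, DGAT2 and CYP4F12.

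EPHX3, an epoxide hydrolase that acts on linoleate epoxides of the kind that lipoxygenases yield, had 40.4, 29.2, 44.3 and 40.6 CPM in miR-155OE replicates 1 to 4, against 10.2, 14.2, 8.67 and 15.2 CPM in CTRL replicates 1 to 4. All miR-155OE libraries stood well above all CTRL libraries, and EPHX3 rose with a log2 fold change of 1.68 ± 0.19 (edgeR adjusted p = 0.0021). STS, the steroid sulphatase that reverses the reaction of SULT2B1, had 5.32, 5.29, 5.53 and 5.80 CPM in miR-155OE replicates 1 to 4, against 2.81, 3.10, 3.11 and 2.40 CPM in CTRL replicates 1 to 4. STS rose with a log2 fold change of 0.94 ± 0.13 (edgeR adjusted p = 0.00553), where SULT2B1 had 0.24 ± 0.15 and did not pass.

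PLA2G2F, a secreted phospholipase known from the upper epidermis of mice, averaged 17.3 ± 1.67 CPM in miR-155OE and 9.26 ± 2.14 CPM in CTRL (SD, n = 4 each) and rose with a log2 fold change of 0.90 ± 0.15 (edgeR adjusted p = 0.0142, and 0.0561 without miR-155OE replicate 1). DGAT2, which makes the triglyceride from which PNPLA1 takes linoleate, had 274, 213, 275 and 298 CPM in miR-155OE replicates 1 to 4, against 191, 154, 161 and 214 CPM in CTRL replicates 1 to 4. It rose with a log2 fold change of 0.56 ± 0.13 (edgeR adjusted p = 0.0443), a call that was lost without any one of miR-155OE replicates 1, 3 and 4 and CTRL replicates 1, 2 and 3 (adjusted p up to 0.123). CYP4F3, a hydroxylase of leukotriene B4, averaged 15.9 ± 1.33 CPM in miR-155OE and 11.4 ± 1.15 CPM in CTRL (SD, n = 4 each) and rose with a log2 fold change of 0.48 ± 0.10 (edgeR adjusted p = 0.0324). Without miR-155OE replicate 1 or 3, or CTRL replicate 2, 3 or 4, the CYP4F3 call was lost (adjusted p of 0.0625 to 0.0931). CYP4F12 averaged 4.43 ± 1.42 CPM in miR-155OE and 1.98 ± 0.679 CPM in CTRL (SD, n = 4 each), with an edgeR adjusted p of 0.0503 on group alone and 0.00186 with the block. CYP4F3 and CYP4F12 belong to a family of related genes, and how reads were split among its members was not tested.

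By role, the other genes that rose were 3 of 18 tested in acylceramide and lipoxygenase metabolism (EPHX3, CYP4F3 and DGAT2) and 2 of 12 in lipases and sterol metabolism (PLA2G2F and STS). None passed on group alone among 5 regulators of serine palmitoyltransferase, 11 partners of elongation, 15 genes of glucosylceramide and sphingomyelin turnover and 4 of glycosphingolipids, nor did the ceramide transfer gene.

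**Figure D5:**
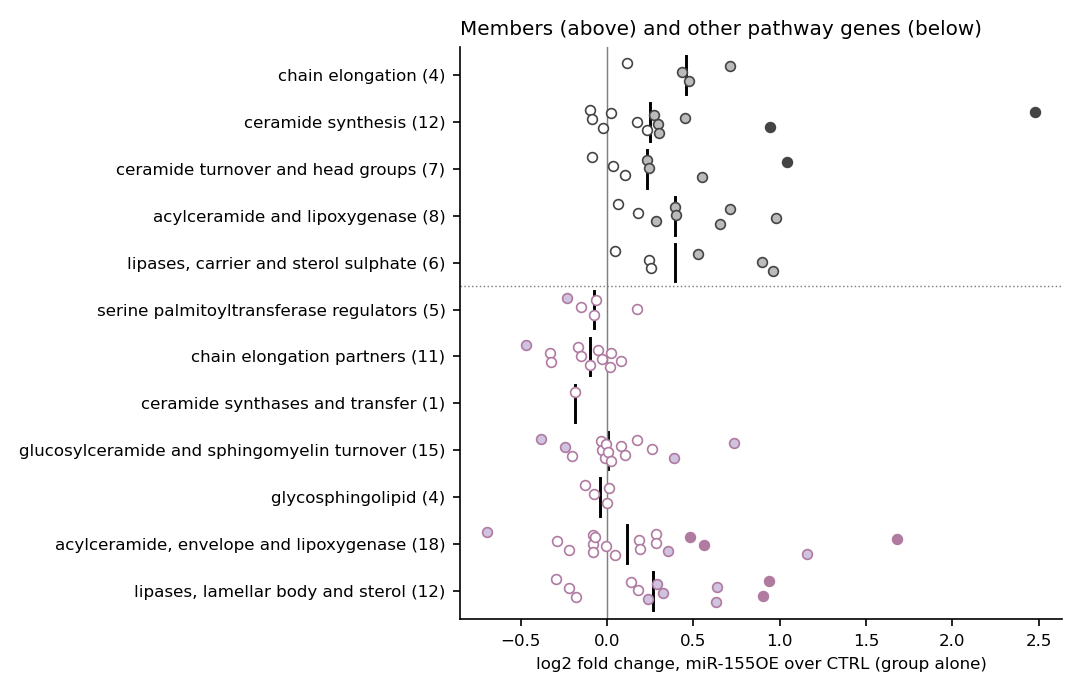
The log2 fold change of miR-155OE over CTRL is plotted by step, the members above and the other pathway genes below; dark points passed on group alone, pale points passed with the replicate block alone, open points passed in neither, and the bar is the median. The medians of the members' steps lie between 0.23 and 0.45. Those of the other roles lie between -0.18 (ceramide synthases and transfer, only 1 gene tested) and 0.26, the highest being that of lipases, lamellar body and sterol. The median over all 66 other genes tested is -0.00, with EPHX3 the highest of these at 1.68.

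In the authors' deposited table, 12 of the 38 members had a higher level in miR-155OE and 0 a lower one at an adjusted p under 0.05, where 774 of the 25529 genes listed there were higher and 434 lower. The authors' deposited table gives log2 fold changes of 2.49 for DEGS2, 0.95 for FA2H and 1.05 for SMPD3. The 9 further members called in the authors' deposited table, ELOVL4, DEGS1, CYP4F22, PNPLA1, SLC27A4, ALOXE3, SDR9C7, LIPN and FABP5, also passed with the replicate block.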

How the data were processed

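The 38 members and the lists of other pathway genes and markers were chosen with earlier results of these data known. Per the submitters' processing notes, reads were aligned with HISAT2 2.0.5 and counted with featureCounts 1.5.0-p3 on GRCh38, and DESeq2 is named. The strand setting is not given in the sources used here. The deposited raw counts per gene (whole reads, 8 libraries, 4 a group) were used for all tests. The authors' deposited table also holds a normalized signal per library (each raw count times 1 factor per library) that was not used, and the authors' log2 fold change, p-value and adjusted p, which are quoted as such.

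In edgeR 4.0.16 (R 4.3.3) genes were kept by filterByExpr (0.279 CPM, 10 reads at the median depth, in at least 4 libraries), scaled by TMM and tested by quasi-likelihood F tests on group alone, with Benjamini-Hochberg adjustment over 15135 genes and a threshold of 0.05. The standard error is the log2 fold change divided by the square root of F. Totals of 33443635 to 52746852 counts per library set the counting precision, and errors are the spread over 4 libraries.

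Pairing was checked on deviations from group means over 10291 genes with a mean of at least 4 CPM. Same-numbered libraries correlated at 0.578, 0.495, 0.182 and 0.606 for numbers 1 to 4, all above 0.1, and the number was therefore used as a pairing. The labels do not say what a number marks. For number 3, miR-155OE replicate 3 correlated better with another CTRL library (0.403) and CTRL replicate 3 with another miR-155OE library (0.205). Libraries of a group differed by more than sampling noise (chi-square of 16.0 to 84.5 per degree of freedom).

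Alternatives were the replicate block, DESeq2 1.42.0 and its size factors, no filter, and leaving out each library. Leaving out each number under the block was added after seeing the data. Named genes are all members, with values per library for those past the threshold in either fit and for the most abundant of each step, and the 6 other pathway genes with the lowest p. Seed matches were searched in the longest GENCODE 29 3′ UTR of each gene and motifs in RefSeq promoters on both strands. Promoter sequences were read from a RefSeq table on GRCh38.p14 and 3′ UTR sequences from GENCODE 29 transcripts.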

Additional observations from a re-analysis of the deposited data

Results flagged for a closer look

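In 86 groups of 4 libraries examined (37 members and 6 other pathway genes in both groups), 4 held a library whose gap to its nearest neighbour took a larger part of the whole range than Dixon's 95% critical value for 4 allows. Chance flags about 1 in 20 groups. ACER1 was high in CTRL replicate 4, at 7.22 CPM against 3.94 to 4.16 CPM in the other CTRL libraries. ABCA12 was low in CTRL replicate 2, at 312 CPM against 460 to 477 CPM in the others. ALOXE3 was low in the same library, at 58.7 CPM against 72.6 to 75 CPM. CYP4F3 was high in CTRL replicate 1, at 13.1 CPM against 10.7 to 11.1 CPM.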

How the results depend on the processing

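On group alone, 488 genes, 3 members and 5 other pathway genes were called, and the counts were 1908, 22 and 19 with the replicate block, 1223, 13 and 9 with DESeq2, and 927, 13 and 8 with no filter on low counts. With DESeq2 size factors they were 517, 4 and 6. Leaving out 1 library gave 125 to 1274 genes, 2 to 15 members and 2 to 10 other pathway genes. With the replicate block and without number 1, 2, 3 or 4, there were 623, 2059, 1389 and 971 genes, 13, 20, 17 and 14 members, and 12, 20, 14 and 11 other pathway genes. The highest counts on group alone, 1274, 15 and 10, came without miR-155OE replicate 2. All members called under any of these settings were higher in miR-155OE. The cause of these differences in count was not tested. No member reversed its sign under the block, DESeq2, its size factors or no filter. With 1 library left out, the log2 fold changes of 4 uncalled members changed sign: SPTLC1 ranged between -0.0414 and 0.0587, CERS5 between -0.109 and 0.0242, UGCG between -0.0706 and 0.127, and LIPH between -0.0638 and 0.131. DEGS2, with 7 to 20 reads in CTRL libraries, is the tested member with the fewest reads.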
